A study of Mus musculus with 4 samples.

Results

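Adrenomedullin (Adm), its receptor subunit Calcrl and the receptor activity-modifying proteins Ramp1, Ramp2 and Ramp3 were followed in newborn mouse heart valves that lacked Cxcr7 and in wildtype valves. Cxcr7 is a receptor that is known to bind the adrenomedullin peptide. Every probe set that the array annotation gives to one of these genes alone was taken, and with Calca the list had 6 genes. The annotation gave 10 such probe sets of the 45101 in the table: 2 for Adm, 3 for Calcrl, 3 for Ramp1, 1 for Ramp2 and 1 for Ramp3. No probe set was annotated to Calca, which encodes calcitonin and the peptide CGRP, so it was not analysed here. The genes were chosen by symbol, with earlier results of the same Cxcr7-/- against control contrast in view, so their signals are given as a description with no test.

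RNA came from semilunar (aortic and pulmonary) valve leaflets of Cxcr7-/- neonates and of wildtype littermates, called Control. The mutants lack both working copies of the gene. Each of 4 Affymetrix arrays held a pool of 3 neonates, with 2 pools per genotype, which the labels call biological replicates. A mutant gave 4 to 6 leaflets and a wildtype 6, so the pools did not hold equal numbers of leaflets. The sources used here do not give the strain, the sex, the litters or the way the allele was made.

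Adrenomedullin is a secreted peptide that widens blood vessels and tightens the endothelial barrier, and it is required for normal development of the heart and of blood and lymphatic vessels in mice. Its receptor is a pair of membrane proteins: Calcrl, a G protein-coupled receptor, reaches the cell surface with a RAMP partner that decides what it binds. With Ramp2 or Ramp3 it is an adrenomedullin receptor and with Ramp1 a CGRP receptor, and all of these raise cyclic AMP in the cell. Cxcr7, listed under its current symbol Ackr3, takes up the chemokine CXCL12 and, as a decoy, adrenomedullin.

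The Adm gene had the widest difference between the genotypes among these genes, and the sequence just before its start is shown for that reason. It is the 250 bases before the RefSeq start of Adm on the plus strand of GRCm38.p6, chr7:110627407-110627656, with matches to a hypoxia response core in capitals. Adm is a known target of hypoxia-inducible factors, which bind that core.

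Adm: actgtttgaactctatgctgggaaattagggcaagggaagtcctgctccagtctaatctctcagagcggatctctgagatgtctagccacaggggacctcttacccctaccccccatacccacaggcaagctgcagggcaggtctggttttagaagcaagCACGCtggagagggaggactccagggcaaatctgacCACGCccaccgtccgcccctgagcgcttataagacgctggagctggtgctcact

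The capitals are the reverse complement of the core GCGTG, whose 2 matches begin 90 and 54 bases before the start. On either strand GCGTG was found in 28.2% of the 32841 RefSeq windows of the same length. The window of Ramp3 also held it at 2 places, and those of Calcrl and Ramp1 held none. The other form of the core, ACGTG, is in 16.6% of windows and the cyclic AMP response core TGACG is in 17.8%, and neither was in the windows of Adm, Calcrl, Ramp1 or Ramp3. A match is a description of letters and not evidence that a factor binds there.

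The deposited values are MAS5 signals on a linear scale, with each array scaled to the same trimmed mean of 500.003. Their median signals were 84.5 and 92.5 in Cxcr7-/- leaflets and 110 and 89.9 in Control leaflets. Cxcr7 itself read 28.3 and 328 in Cxcr7-/- leaflets, against 4936 and 5698 in Control leaflets. Fold changes are on a log2(signal + 22) scale, Cxcr7-/- minus Control, and carry the standard error (SE) of a limma fit across the 22518 probe sets whose mean log2 value lay above the median of all probe sets, which corresponds to a signal of 87.4. No probe set of the array passed an adjusted p of 0.05 in limma with Benjamini-Hochberg adjustment (0% called, smallest adjusted p = 0.400), while 2279 had an unadjusted p under 0.05, 888 higher (3.94%) and 1391 lower (6.18%) in Cxcr7-/- pools. Of the 10 probe sets of these genes, 6 passed the filter on dim values and 4, of Calcrl and Ramp1, did not.

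The ligand was low in the mutant leaflets. The brighter Adm probe set (1447839_x_at) read 67.3 and 412 in Cxcr7-/- leaflets, against 7350 and 1083 in Control leaflets. Both mutant pools lay below both control pools, and the pools of 1 genotype also lay far apart, 6.12-fold in the mutants and 6.79-fold in the controls. The mean was 240 ± 244 in Cxcr7-/- pools and 4216 ± 4431 in Control pools (SD, n = 2 each), so the mutants stood at 5.68% of the controls. On the log2 scale the difference was -3.86 ± 0.94 (SE).

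The second Adm probe set (1416077_at) read 34.1 and 114 in Cxcr7-/- leaflets, against 477 and 174 in Control leaflets, a log2 fold change of -1.84 ± 0.59. It put the 4 pools in the same order as the first: Cxcr7-/- replicate 1 lowest, then Cxcr7-/- replicate 2, Control replicate 2 and Control replicate 1. Its mutant signals lie around the level of the filter, which it passed through the control pools. Both probe sets call the same gene, so they are 2 readings of the same RNA and not independent samples. The suffix x of the brighter one marks probes that can also match other sequences, and its signals spread more widely than those of the second.

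The size of the Adm difference rested on single pools. It was -2.72 without Cxcr7-/- replicate 1 and -5.00 without Cxcr7-/- replicate 2, and it was -2.49 without Control replicate 1 and -5.23 without Control replicate 2. In the closest pair of pools of different genotype the mutant read 412 and the control 1083, a 2.63-fold difference, and in the farthest pair the control was 109-fold higher. Of all kept probe sets, 1.23% were at least 2-fold lower in all 4 comparisons of a mutant with a control pool and 22.3% were lower without overlap. The brighter Adm probe set met both counts and the dimmer one only the second, and since the contrast was in view when the genes were chosen, nothing is read from that.

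**Figure D1:**
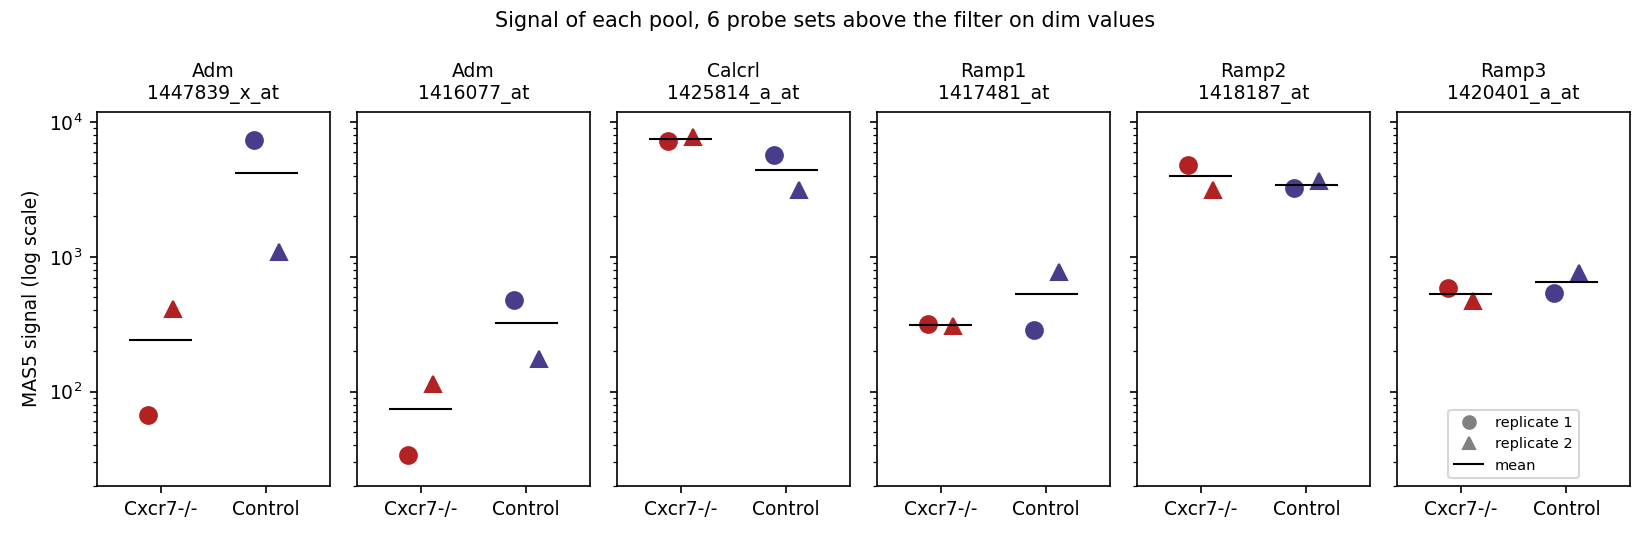
MAS5 signal of each pool on a log axis for the 6 probe sets above the filter on dim values, Cxcr7-/- pools in red and Control pools in blue, with replicate 1 as a circle, replicate 2 as a triangle and the mean of 2 pools as a line. Both Adm panels run from Cxcr7-/- replicate 1 (67.3 and 34.1) up to Control replicate 1 (7350 and 477), Calcrl is higher in both mutant pools, and the RAMP panels overlap.

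The receptor subunit went the other way. Calcrl read 7276 and 7752 on its bright probe set (1425814_a_at) in Cxcr7-/- leaflets, against 5737 and 3120 in Control leaflets. The mutant pools were alike and both lay above the controls, which differed 1.84-fold from each other. The mean was 7514 ± 336 in Cxcr7-/- pools and 4429 ± 1851 in Control pools (SD, n = 2 each), 1.70-fold higher in the mutants, with a log2 fold change of 0.82 ± 0.31 (SE). Higher signal in both mutant pools than in both control pools was seen for 20.1% of all kept probe sets, and Calcrl was the single kept probe set of these genes among them.

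The size of the Calcrl difference depended on the Control pools. Without Control replicate 2 the log2 fold change was 0.39, and without Control replicate 1 it was 1.26. With 2 pools per genotype, leaving out either pool of a genotype moves the fold change equally far in opposite directions. Leaving out a mutant pool moved it little, to 0.87 without Cxcr7-/- replicate 1 and 0.78 without Cxcr7-/- replicate 2.

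The other probe sets of Calcrl were dim. The first (1418489_a_at) read 92.5 and 80.7 in Cxcr7-/- leaflets, against 107 and 42.9 in Control leaflets, a log2 fold change of 0.25 ± 0.59 in a fit without the filter. The other (1459536_at) read 1.14 and 57.5 in Cxcr7-/- leaflets, against 122 and 9.92 in Control leaflets, at -0.66 ± 0.89. The genotypes overlapped on both. The size of the last one depends on the pseudocount of 22, since 2 of its signals lie below it.

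**Figure D2:**
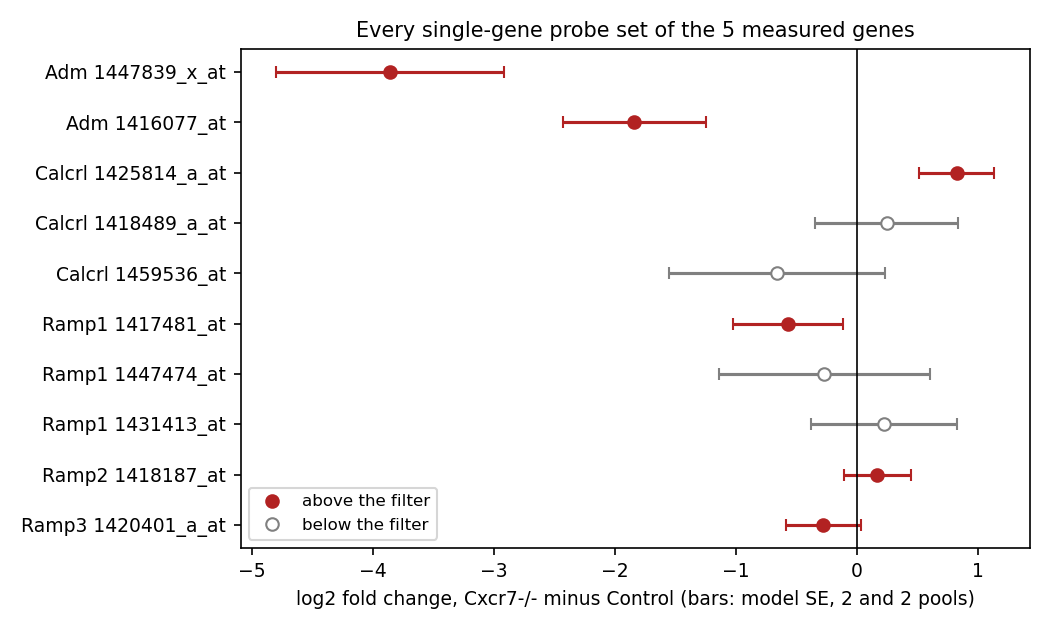
Log2 fold change of Cxcr7-/- minus Control for all 10 single-gene probe sets, with the standard error of the model as bars (2 and 2 pools), filled where the probe set passed the filter on dim values and open where it did not. Both Adm probe sets lie to the left at -3.86 and -1.84, the bright Calcrl probe set lies at 0.82, and the RAMP genes lie between -0.57 and 0.22.

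The RAMP partners of the adrenomedullin receptor did not separate the genotypes, and overlap of the pools was the case for 57.6% of all kept probe sets. Ramp2, the partner that endothelial cells use most and that mouse embryos need, read 4787 and 3126 in Cxcr7-/- leaflets, against 3219 and 3665 in Control leaflets. Both controls lay between the mutant pools, and the log2 fold change of 0.17 ± 0.28 was smaller than its error. It turned to -0.13 without Cxcr7-/- replicate 1 and was 0.48 without Cxcr7-/- replicate 2.

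Ramp3, the partner of the other adrenomedullin receptor, read 583 and 474 in Cxcr7-/- leaflets, against 540 and 759 in Control leaflets. The genotypes overlapped, and the log2 fold change was -0.28 ± 0.31. It was -0.04 without Control replicate 2 and -0.51 without Control replicate 1.

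Ramp1, which makes Calcrl a CGRP receptor, read 315 and 307 in Cxcr7-/- leaflets, against 287 and 769 in Control leaflets on its brightest probe set (1417481_at). The mutant pools and Control replicate 1 were alike and Control replicate 2 was high alone. The log2 fold change was -0.57 ± 0.45, and without Control replicate 2 it was 0.11. The same pool stood highest for Ramp3 and lowest for the bright Calcrl probe set.

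The dim Ramp1 probe sets also followed no genotype. One (1447474_at) read 69.7 and 12.98 in Cxcr7-/- leaflets, against 9.47 and 126 in Control leaflets, at -0.27 ± 0.87. The other (1431413_at) read 6.86 and 45.4 in Cxcr7-/- leaflets, against 36.0 and 2.54 in Control leaflets, at 0.22 ± 0.60. In both the pools of 1 genotype lay at least 5.37-fold apart.

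**Figure D3:**
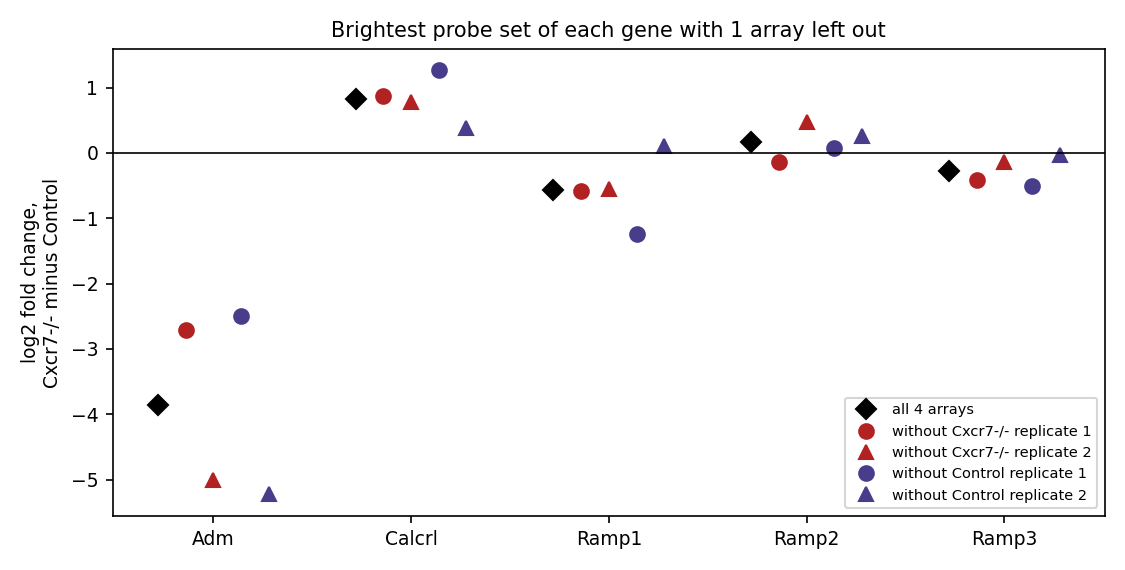
Log2 fold change of Cxcr7-/- minus Control of the brightest probe set of each gene with all 4 arrays (black diamonds) and with 1 array left out (red for a Cxcr7-/- pool, blue for a Control pool). Adm stays below 0, between -5.23 and -2.49, and Calcrl above it, between 0.39 and 1.26, while Ramp1 and Ramp2 change sign when 1 array is left out.

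Ramp1 also lies close to Cxcr7 on its chromosome. In the RefSeq gene order of mouse chromosome 1 it is number 8 of the protein-coding genes after Ackr3. Of the 20 protein-coding genes on each side, 16 had a kept probe set, Ramp1 included. Over all 11260 genes measured the median log2 fold change was 0.00 and 5591 were negative. Of the 16 neighbours 13 were negative, Ramp1 among them, with a median of -0.22. At an unadjusted p under 0.05 there was 1, Klhl30, at -0.85 ± 0.36 (limma adjusted p = 0.483), beside 442 higher and 454 lower of all genes measured. The median of these neighbours was -0.05 without Control replicate 2, -0.07 without Cxcr7-/- replicate 2 and -0.08 with the filter raised to the 75th percentile.

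Relatives of the peptides and of the receptor were mostly dim. Of 13 genes listed, which were other peptides of the family and receptors reported to pair with RAMPs, 3 had a kept probe set. Gper1, a membrane receptor for estrogen that can bind Ramp3, read 1482 and 1104 in Cxcr7-/- leaflets, against 806 and 671 in Control leaflets (0.78 ± 0.29, limma adjusted p = 0.459). Its other kept probe set was at 0.76 ± 0.38. Pth1r, the parathyroid hormone receptor, was at -0.11 ± 0.30, and Crcp, an intracellular partner of the CGRP receptor, was at -0.06 ± 0.31.

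Below the filter were Adm2, the other peptide with adrenomedullin activity, at 90.0 and 11.3 in Cxcr7-/- leaflets, against 34.9 and 5.02 in Control leaflets, and Calcb, a second CGRP gene, at 65.9 and 80.5, against 44.0 and 80.1. The genotypes overlapped on both. Of 10 dim relatives, 3 receptors had pools that did not overlap, and their directions differed. Among kept probe sets, 20.1% were higher and 22.3% lower in Cxcr7-/- pools without overlap, and no share was taken among dim ones. Vipr1, the receptor of vasoactive intestinal peptide, read 6.32 and 10.2 in Cxcr7-/- leaflets, against 93.1 and 86.2 in Control leaflets. The calcitonin receptor Calcr read 15.9 and 46.1 in Cxcr7-/- leaflets, against 6.92 and 11.2 in Control leaflets, and Crhr1, a receptor of corticotropin-releasing hormone, read 66.3 and 80.9 in Cxcr7-/- leaflets, against 10.2 and 31.1 in Control leaflets. None of the 3 was in the test across probe sets, since their means lay below the filter. Each of the 3 has signals below the pseudocount of 22, so nothing is read from them.

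The enzymes that make and break the peptide showed no common direction. Of 12 genes listed, 9 had a kept probe set, 4 positive and 5 negative, with a median of -0.02 that turned to 0.03 after median centring. Pam, which amidates adrenomedullin and so makes it active, was at 0.17 ± 0.36. Mme (neprilysin), which degrades it, read 832 and 709 in Cxcr7-/- leaflets, against 641 and 597 in Control leaflets, at 0.30 ± 0.28.

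Among these enzymes 2 had an unadjusted p under 0.05, both lower, beside 442 higher and 454 lower of all 11260 genes measured. The proprotein convertase Pcsk5 was at -0.72 ± 0.23 (limma adjusted p = 0.432), with other kept probe sets at -0.91 and -0.19. The endothelin-converting enzyme Ece1 was at -0.69 ± 0.29 (limma adjusted p = 0.481), with other kept probe sets at 0.08 and -1.34.

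The cyclic AMP machinery downstream of Calcrl was mixed as well. Of 37 genes listed, 31 had a kept probe set, 16 positive and 15 negative, with a median of 0.03 that turned negative when no filter was used, when all kept probe sets of a gene were counted, without Cxcr7-/- replicate 2 (-0.03) and without Control replicate 2 (-0.10). None passed the adjusted threshold in limma, and at an unadjusted p under 0.05 there were 3 higher and 1 lower, beside 442 higher and 454 lower of all 11260 genes measured. Higher were the phosphodiesterases Pde4d at 1.15 ± 0.25 and Pde4b at 1.27 ± 0.37 and the protein kinase A subunit Prkar2b at 0.73 ± 0.22, at limma adjusted p = 0.406, 0.407 and 0.414. Lower was the adenylyl cyclase Adcy5, at -1.07 ± 0.35 (limma adjusted p = 0.441).

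Probe sets of the phosphodiesterases, which have many transcript forms, disagreed. Pde4d had another kept probe set at -1.67 ± 0.38, opposite in sign to the brightest one, and Pde4b had 2 others at 0.91 and -0.24. The other kept probe sets of Prkar2b, at 1.34 and 1.03, and of Adcy5, at -1.79, had the sign of the brightest ones. Gnas, the stimulatory G protein that couples Calcrl to adenylyl cyclase, was at 0.33 ± 0.19 on its brightest probe set and negative on its 2 others, at -0.32 and -0.17.

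Hypoxia-response genes, the group that Adm belongs to by its known regulation, were on both sides of 0. Of 29 genes listed, 26 had a kept probe set, 16 positive and 10 negative, with a median of 0.11 that turned to -0.01 without Cxcr7-/- replicate 2. None passed the adjusted threshold in limma, and 3 were higher and none lower at an unadjusted p under 0.05, where 442 of the 11260 genes measured were higher and 454 lower. These were the oxidoreductase Ero1a at 0.93 ± 0.25 (limma adjusted p = 0.406), the mTOR inhibitor Ddit4 at 1.04 ± 0.38 (0.459) and Hif1a, the oxygen-regulated factor itself, at 0.52 ± 0.22 (0.483). Vegfa read 821 and 886 in Cxcr7-/- leaflets, against 752 and 769 in Control leaflets (0.16 ± 0.27), and Epas1 was at -0.29 ± 0.23. Other kept probe sets were at 1.06 and 0.97 for Ero1a and at -0.61 for Epas1. For Hif1a they were at 0.08 ± 0.30 and 0.39 ± 0.70.

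**Figure D4:**
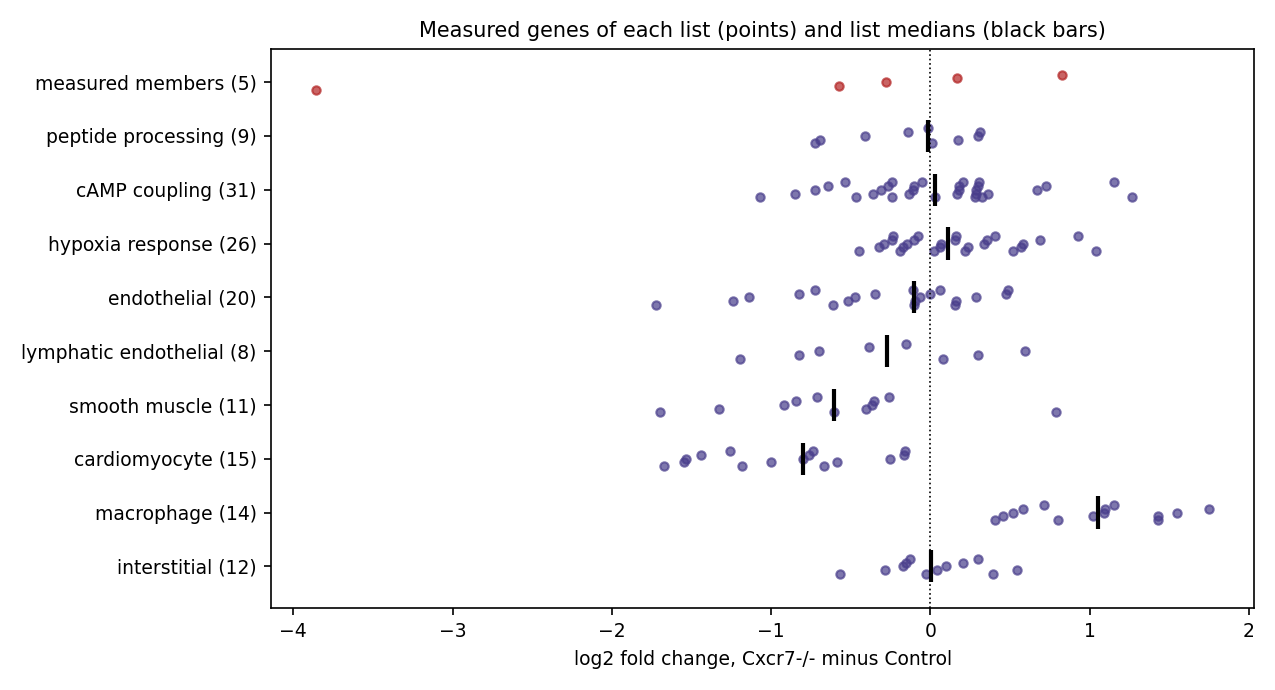
Log2 fold change of Cxcr7-/- minus Control of the brightest probe set of each gene, with the 5 measured genes of the adrenomedullin system in red on the top row and 9 context lists in blue, the number of measured genes in brackets and a black bar at each list's median. Adm, at -3.86, lies outside the range of every list shown, and the medians run from -0.80 for cardiomyocyte markers to 1.06 for macrophage markers.

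The cell types of the sample bear on these values, because Calcrl and Ramp2 are carried mainly by endothelium and in bulk leaflets fewer cells of a type and less RNA per cell cannot be told apart. All 20 endothelial markers had a kept probe set, 6 positive and 14 negative, with a median of -0.11, which was -0.28 without Control replicate 2 and -0.05 without Control replicate 1. Their summed signal was 37631 and 36288 in Cxcr7-/- leaflets and 43247 and 46844 in Control leaflets. Of all 11260 genes measured, 5591 were negative. At an unadjusted p under 0.05 there were 5 endothelial markers, all lower, beside 442 higher and 454 lower of all genes measured. They were led by the tight junction gene Cldn5 at -1.73 ± 0.26 (limma adjusted p = 0.400) and Vwf at -0.83 ± 0.24 (limma adjusted p = 0.411). The VEGF receptor Kdr was at -0.72 ± 0.29, the endothelial cadherin Cdh5 at -0.51 ± 0.31, the angiopoietin receptor Tek at -0.07 ± 0.26 and Pecam1 at 0.06 ± 0.34.

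Calcrl had a positive log2 fold change in pools where 14 of 20 endothelial markers had negative ones. Its log2 value minus the median of the endothelial markers of the same pool was 2.57 and 2.48 in Cxcr7-/- pools, against 1.84 and 1.00 in Control pools, a mean difference of 1.11 without overlap. How often other genes separate on this quantity was not counted. On the signal itself 20.1% of kept probe sets were higher in Cxcr7-/- pools without overlap. For Ramp2 the log2 value minus the endothelial median was 1.97 and 1.18 in Cxcr7-/- pools, against 1.01 and 1.23 in Control pools, so the genotypes overlapped. Lymphatic endothelial markers, another cell type in which Calcrl and Ramp2 act, had a median of -0.27 over 8 genes, with 3 positive and 5 negative. All 12 interstitial markers of the leaflet had a kept probe set, with a median of 0.01 that turned negative after quantile normalization and without Cxcr7-/- replicate 2 or Control replicate 2.

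None of the cardiomyocyte, smooth muscle or macrophage markers passed the adjusted threshold in limma, with smallest adjusted p = 0.406, 0.406 and 0.400, but most markers of each type had 1 sign. All 15 cardiomyocyte markers were negative (median -0.80), with a summed signal of 100213 and 137673 in Cxcr7-/- leaflets and 171593 and 240848 in Control leaflets, and 9 were lower at an unadjusted p under 0.05. Of 11 smooth muscle markers, 10 were negative (median -0.61), with a summed signal of 21956 and 26352 in Cxcr7-/- leaflets and 31662 and 42347 in Control leaflets. All 14 macrophage markers were positive (median 1.06), with a summed signal of 23688 and 20945 in Cxcr7-/- leaflets and 14673 and 12470 in Control leaflets, and 9 were higher at an unadjusted p under 0.05. Of all 11260 genes measured, 5669 were positive and 5591 negative, and 442 were higher and 454 lower at that threshold.

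Heart muscle, smooth muscle and macrophages can all make Adm, and the part of these cells in the Adm difference was not tested. The cardiomyocyte sum was highest in Control replicate 2 and lowest in Cxcr7-/- replicate 1. Adm was highest in Control replicate 1 and lowest in Cxcr7-/- replicate 1, on both probe sets. Nothing is read from these orders. The log2 value of Adm minus the median of the cardiomyocyte markers of the same pool was -5.25 and -3.06 in Cxcr7-/- pools, against 0.11 and -3.59 in Control pools, a mean difference of -2.42. On that quantity the genotypes overlapped, since Control replicate 2 lay below Cxcr7-/- replicate 2. Against the smooth muscle median it was -3.17 and -1.14 in Cxcr7-/- pools and 2.74 and -0.05 in Control pools, which did not overlap. Against the macrophage median it was -3.30 and -0.42 in Cxcr7-/- pools and 4.02 and 1.35 in Control pools, also without overlap. Against the endothelial median it was -3.78 and -1.68 in Cxcr7-/- pools and 2.20 and -0.51 in Control pools. Against the interstitial median it was -8.24 and -6.04 in Cxcr7-/- pools and -1.89 and -4.08 in Control pools. The genotypes overlapped on neither. On its own signal Adm was already lower without overlap, as were 22.3% of kept probe sets. How often other genes separate on these quantities was not counted, so nothing is read from them.

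Nerve fibres carry CGRP, the ligand of Calcrl with Ramp1. Of 15 neuronal markers, 7 had a kept probe set, 4 positive and 3 negative (median 0.40, and 0.17 without Cxcr7-/- replicate 1), with a summed signal of 2731 and 2212 in Cxcr7-/- leaflets and 1774 and 1615 in Control leaflets. The intermediate filament gene Prph led them at 1.77 ± 0.34 (limma adjusted p = 0.406). None of 11 neuroendocrine and thyroid markers, the other cells that use Calca, had a kept probe set, and their highest signal on any array was 98.1.

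Array quality values varied between the pools too. The 3' to 5' signal ratio was 15.5 and 11.7 in Cxcr7-/- leaflets and 20.2 and 19.1 in Control leaflets for the Actb controls, and 12.6 and 8.20 in Cxcr7-/- leaflets and 12.7 and 24.2 in Control leaflets for the Gapdh controls. The signal of the spike-in control dap (DapX-3) was 9047 and 7291 in Cxcr7-/- leaflets and 12670 and 2487 in Control leaflets. Control replicate 2 had the highest Gapdh ratio and the lowest dap signal. Leaving out either Control pool moved the Calcrl, Ramp1 and Ramp3 values equally far in opposite directions, so those shifts do not single out an array. The part of these quality values in the results was not tested.

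Genes with the pattern most like each of 3 members were found by the root mean square difference of centred log2 profiles over the 4 pools, among 11260 genes. For Adm the nearest were Zg16 at 0.76, A2m at 1.02 and the fast muscle troponin Tnnc2 at 1.08, all with their highest signal in Control replicate 1 and their lowest in Cxcr7-/- replicate 1. Tnnc2, for instance, read 37.6 and 392 in Cxcr7-/- leaflets, against 1460 and 163 in Control leaflets, so its genotypes overlapped.

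For Calcrl the nearest were Slc25a17 at 0.02, Wdr12 at 0.04 and Arih1 at 0.04, which were likewise lowest in Control replicate 2. Arih1 read 2082 and 2087 in Cxcr7-/- leaflets, against 1645 and 868 in Control leaflets, while its other kept probe sets were between -0.10 and 0.08. For Ramp2 they were Pigs, Anapc15 and Nudt9, all within 0.03. The distance was not scaled, so it tends to be larger for a gene whose pools lie far apart, as those of Adm do. The distances of Adm, Calcrl and Ramp2 can therefore not be set against each other.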

How the data were processed

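Leaflet RNA (50 ng) was amplified in 2 rounds and hybridised to Affymetrix arrays, per the labels' protocols. The deposited values are intensity values, 1 MAS5 signal per probe set and array, made with Affymetrix Expression Console per the submitters' processing notes. Software versions and detection calls: not given in the sources used here. The number of arrays limits the precision.

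The 64 control probe sets were set aside. Symbols came from a platform annotation updated by gene identifier: 34945 probe sets had 1 symbol, 932 several and 9160 none. Values were log2(signal + 22), 22 being the rounded 25th percentile, without further scaling. The genotypes were set against each other in limma 3.58.1 (R 4.3.3; lmFit, eBayes with intensity trend, two-sided, Benjamini-Hochberg over kept probe sets), a procedure tested on simulated data. Dim probe sets of the family were fitted without the filter. A gene in a list was represented by its brightest single-symbol probe set.

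The members and lists were chosen with earlier results of these data known. Named were all probe sets of the family, listed relatives, some fixed pathway and endothelial genes, and those of each list with the smallest unadjusted p. An exact permutation test of 2 against 2 pools cannot pass the threshold and was not run. No label ties replicate numbers to a litter, so pools were not paired. Promoters came from RefSeq (GRCm38.p6).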

Additional observations from a re-analysis of the deposited data

Results flagged for a closer look

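The 2 probe sets annotated to both Ramp2 and Vps25, a gene of endosomal sorting, were not among the 10 single-gene probe sets. Both passed the filter and were in the limma fit. In 1 of them each Cxcr7-/- pool lay above each Control pool, and in the other each lay below. Among all kept probe sets, 20.1% were higher and 22.3% lower without overlap, so nothing is read from that. The first (1421051_s_at) read 221 and 256 in Cxcr7-/- leaflets, against 147 and 184 in Control leaflets, a log2 fold change of 0.48 ± 0.35. The other (1428621_a_at) read 667 and 532 in Cxcr7-/- leaflets, against 738 and 717 in Control leaflets, at -0.28 ± 0.29, so the pair lay on opposite sides. Which of the genes gave these signals was not determined.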

How the results depend on the processing

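The alternatives were a pseudocount of none or 4 times larger, a filter of none or at the 75th percentile, median centring, quantile normalization, a fit without intensity trend, array weights, the replicate number as a block, the crossed block and each array left out. The brightest probe sets of Adm, Calcrl and Ramp3 kept their sign in all 14. Ramp1, which the 75th percentile filter removed, and Ramp2 each changed sign when 1 array was left out. With 1 array left out, Adm ranged from -5.23 to -2.49, Calcrl from 0.39 to 1.26, Ramp1 from -1.25 to 0.11, Ramp2 from -0.13 to 0.48, Ramp3 from -0.51 to -0.04 and the chromosome 1 neighbours from -0.29 to -0.05. Over the other settings Adm ranged from -4.08 to -3.40 and Calcrl from 0.79 to 0.88. The count past the adjusted threshold was 0 with all arrays, except for 5 under the crossed block, and from 0 to 673 with 1 left out. The 673 were without Control replicate 1, where the spread came from the 2 Cxcr7-/- pools alone and the lone Control pool was assumed to vary like them. The count at an unadjusted p under 0.05 was 2279, from 885 to 4822 with 1 array left out, and 1105 with the 75th percentile filter.

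With the replicate block 0 probe sets passed the adjusted threshold and 1730 had an unadjusted p under 0.05, and no call changed. Deviations of same-numbered pools correlated at -0.26, and a crossed pairing, chosen after seeing the data, gave 5 and 3163. The cause of these shifts was not tested.

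MAS5 subtracts a local background, so signals near 22 carry large relative errors, which limits the dim probe sets of Calcrl and Ramp1 and the mutant readings of Adm.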
